A study of Homo sapiens with 8 samples.

Results

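Squamous differentiation was followed through 10 genes: TP63, IVL, SPRR1A, SPRR1B, SPRR2A, SPRR2D, SPRR3, TGM1, KLK10 and MAB21L4. They were chosen by symbol from the 60617 genes of the count table, and each of the 10 symbols matched 1 gene. The choice was made with earlier results of these data known. MAB21L4 was picked for its lower level in untreated NeuT than in untreated Empty cells, so its values in that comparison are given as a description only. All 10 genes passed the filter on low counts, which kept 17693 genes for testing. RNA was sequenced from MCF-10A, an established and non-tumorigenic epithelial cell line of the human breast. Of 2 lines made from it, named Empty and NeuT, each was left untreated or exposed to 1 µM JG-98, an inhibitor of the chaperone Hsp70, for 12 h. The 4 groups (untreated Empty, Empty with JG-98, untreated NeuT, NeuT with JG-98) had 2 libraries each. What the NeuT line carries is not stated in the labels. They do not say whether libraries came from separate cultures either, so p-values measure only the spread between these samples. Each line appears as 1 line, so a difference between Empty and NeuT cannot be told apart from any other way in which these 2 lines differ.

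Squamous differentiation turns a dividing basal cell into a flat, crosslinked shell. Involucrin and the small proline-rich (SPRR) proteins are laid down under the plasma membrane, and transglutaminases join them into the cornified envelope. Serine proteases of the kallikrein family process proteins of the outer layers, and the transcription factor p63 maintains the basal state and prepares the cells for the switch. Breast basal cells share p63 and many basal keratins with the epidermis, and cultured MCF-10A cells are known to express both.

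Total counts ranged from 37341458 in Empty with JG-98 replicate 1 to 56861971 in Empty with JG-98 replicate 2. Levels are in CPM, that is counts put on one library size with TMM factors. A count of 0 in 1 library allows up to 3 counts, 0.0511 to 0.0787 CPM, and such limits cover counting error only. The 2 libraries of NeuT with JG-98 differed most from each other, with a chi-square of 21.0 per gene against 4.43 to 7.82 in the other groups. All 9 epithelial markers checked were present, and their summed level was 20563 to 21317 CPM in the Empty libraries and 24137 to 24772 CPM in the NeuT libraries. The markers did not move together: EPCAM was at 196.4 to 223.1 CPM in Empty and 93.5 to 100.7 in NeuT, and KRT14 and KRT17 were also lower in every NeuT library. The summed level of 7 fibroblast markers was 22.7 to 27.2 CPM in Empty and 86.2 to 100.5 CPM in NeuT. Most of that gap was DCN, at 2.47 to 3.58 CPM in Empty and 62.4 to 77.5 CPM in NeuT. TWIST2 was present in both lines, at 13.8 to 17.7 CPM in Empty and 16.9 to 19.0 in NeuT. So was COL1A1, at 4.86 to 5.72 and 4.70 to 5.83 CPM. PDGFRA and LUM were at no more than 0.0557 CPM in any library. The monocyte marker CD14 was at 5.01 to 6.92 CPM in Empty and 10.7 to 12.2 in NeuT. The summed level of 4 endothelial markers was 12.3 to 17.5 CPM in Empty and 9.29 to 11.1 in NeuT. Most of it was PECAM1, at 10.4 to 15.0 and 7.85 to 9.25 CPM. CDH5, another of the 4, went the other way, at 0.0511 to 0.123 CPM in Empty and 0.296 to 0.621 in NeuT. The leukocyte markers PTPRC and CD3E were at no more than 0.0705 CPM in any library. The part of these markers in the differences between lines below was not tested.

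The SPRR genes lie in 1 cluster on chromosome 1, and within the SPRR1 and the SPRR2 genes they are near copies, which bears on how their reads can be told apart. The coding sequences of the 2 closest pairs among the 10 genes, from the GENCODE 29 transcripts, are shown 5′ to 3′ with the bases that differ within a pair in capitals.
SPRR1A: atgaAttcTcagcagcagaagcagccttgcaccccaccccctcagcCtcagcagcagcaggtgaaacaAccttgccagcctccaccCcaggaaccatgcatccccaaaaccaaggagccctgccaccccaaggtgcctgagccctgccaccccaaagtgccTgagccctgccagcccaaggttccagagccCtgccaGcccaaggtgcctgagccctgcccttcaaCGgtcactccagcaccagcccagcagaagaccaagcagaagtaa
SPRR1B: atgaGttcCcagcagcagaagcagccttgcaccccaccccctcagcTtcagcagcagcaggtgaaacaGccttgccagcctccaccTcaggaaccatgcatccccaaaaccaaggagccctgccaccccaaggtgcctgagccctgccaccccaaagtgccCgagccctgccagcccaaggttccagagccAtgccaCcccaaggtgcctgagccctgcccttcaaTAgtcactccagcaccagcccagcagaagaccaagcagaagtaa
SPRR2A: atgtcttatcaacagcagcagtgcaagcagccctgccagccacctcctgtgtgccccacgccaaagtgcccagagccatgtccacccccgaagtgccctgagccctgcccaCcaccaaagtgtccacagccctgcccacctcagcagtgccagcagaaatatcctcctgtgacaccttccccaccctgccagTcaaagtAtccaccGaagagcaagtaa
SPRR2D: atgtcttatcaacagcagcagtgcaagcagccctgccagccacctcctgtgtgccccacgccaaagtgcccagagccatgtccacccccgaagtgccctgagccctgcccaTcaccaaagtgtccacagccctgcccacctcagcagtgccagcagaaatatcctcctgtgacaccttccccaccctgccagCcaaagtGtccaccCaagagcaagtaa
The SPRR1A and SPRR1B sequences, 270 bases each, were identical at 260 positions (96.3%), with a longest identical run of 74 bases. SPRR2A and SPRR2D, 219 bases each, were identical at 215 positions (98.2%), with a longest run of 111 bases. Over whole transcripts, 32.7% of the 50-base words of SPRR2A and 19.3% of those of SPRR2D occurred in another gene, against 11.3% for SPRR1A and 4.38% for SPRR1B. The labels leave it unclear whether reads were single 50-base or paired 100-base ones. For 100-base words the shares were lower, at 20.3% for SPRR2A, 3.74% for SPRR2D and 0% for SPRR1A and SPRR1B. How the counting treated reads with several matches is not given in the sources used here, so the split of reads among these copies is uncertain. No 50-base word in IVL, TGM1, SPRR3 or MAB21L4 was shared.

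Promoter windows from RefSeq (GRCh38.p14), taken as the 250 bases before the RefSeq start, matched 8 of the 10 genes in 10 windows; TGM1 and SPRR2D had none. Both strands were searched for the AP-1 motif TGANTCA, bound by Fos and Jun factors, and for the TATA box letters TATAAA, which do not overlap each other. The AP-1 letters were found before 6 genes, MAB21L4, IVL, SPRR1A, SPRR1B, SPRR2A and SPRR3, and in 6.57% of the 35116 windows of the same length. TATAAA was found before 4 genes, IVL, SPRR1A, SPRR2A and SPRR3, and in 10.7% of all windows. Windows of 3 genes are shown because their RNA differed in opposite ways between the lines or did not pass the test there, written 5′ to 3′ on the gene's strand, with matches in capitals: IVL at chr1:152908296-152908545 (+), SPRR2A at chr1:153057513-153057762 (-) and MAB21L4 at chr2:240896157-240896406 (-).
IVL: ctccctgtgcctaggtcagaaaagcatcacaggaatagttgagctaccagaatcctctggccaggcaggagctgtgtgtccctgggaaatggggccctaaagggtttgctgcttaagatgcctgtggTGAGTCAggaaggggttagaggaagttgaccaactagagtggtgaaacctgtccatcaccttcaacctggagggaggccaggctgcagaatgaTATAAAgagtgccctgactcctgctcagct
SPRR2A: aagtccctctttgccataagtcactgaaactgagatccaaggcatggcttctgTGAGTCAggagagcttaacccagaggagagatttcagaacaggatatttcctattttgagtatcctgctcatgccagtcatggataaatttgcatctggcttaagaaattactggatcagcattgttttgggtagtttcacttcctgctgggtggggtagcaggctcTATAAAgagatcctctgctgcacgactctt
MAB21L4: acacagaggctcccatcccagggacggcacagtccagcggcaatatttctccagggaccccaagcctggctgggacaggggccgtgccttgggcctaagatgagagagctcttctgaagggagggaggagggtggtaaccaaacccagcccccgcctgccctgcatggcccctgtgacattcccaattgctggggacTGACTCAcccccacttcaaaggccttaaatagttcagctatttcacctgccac
The AP-1 match began 123 bases before the start of IVL, 197 before that of SPRR2A and 53 before that of MAB21L4, whose second window held neither motif. RefSeq starts differ from those of the count table for some genes: the windows of MAB21L4 and KLK10 lie inside the counted gene, and that of SPRR1A lies apart from its counted exon. SPRR1B held 2 AP-1 matches, and no match was found before KLK10 or TP63. The only TP63 window ends just before the counted start of the gene, so any start further inside it was not searched. These are matches of letters in a window and do not show binding.

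**Figure D1:**
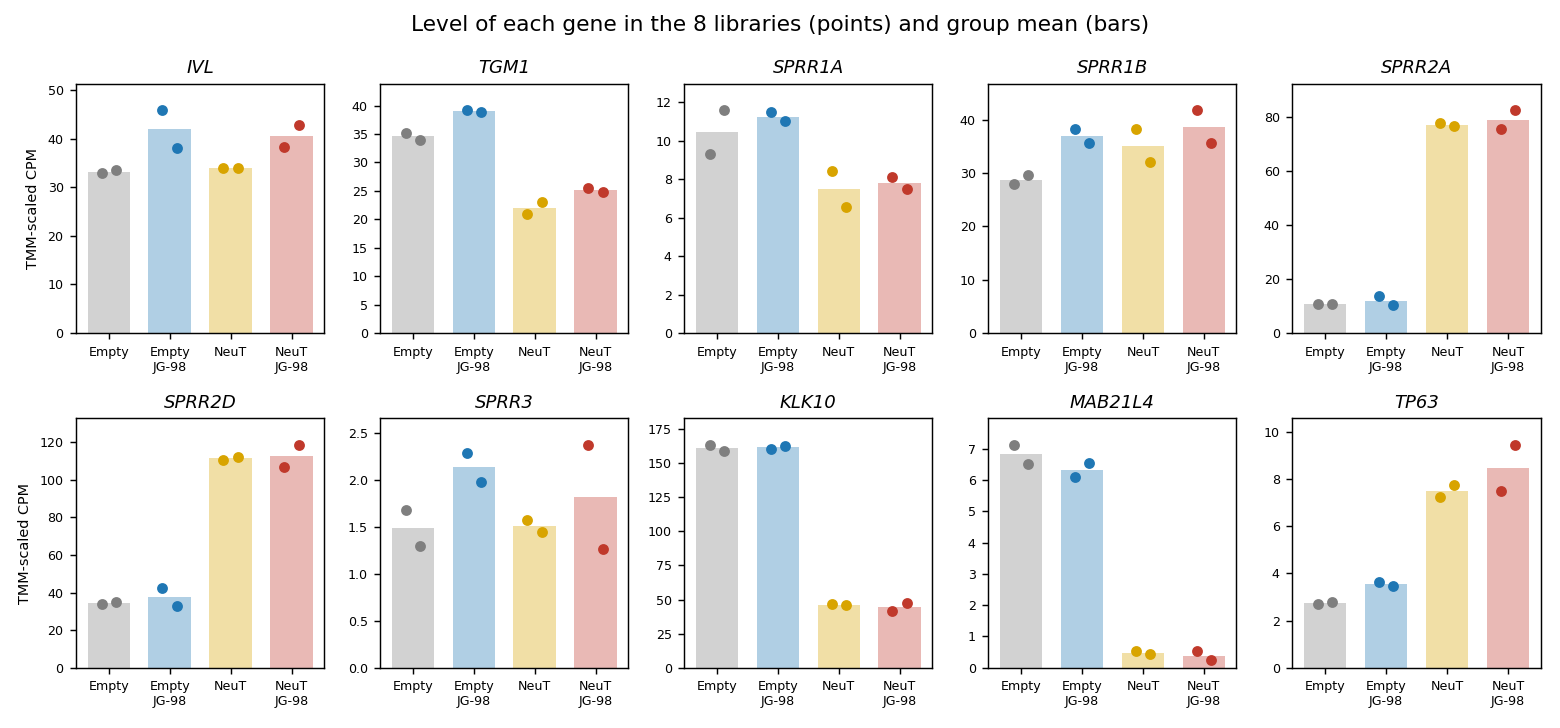
TMM-scaled CPM (vertical axes, linear, starting at 0) of the 10 genes in the 4 groups; points are the 2 libraries of a group and bars their mean. SPRR2A, SPRR2D and TP63 stand higher in both NeuT groups, KLK10, TGM1 and MAB21L4 stand lower, and IVL lies between 33.0 and 45.9 CPM throughout.

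The lines differed in these genes in both directions. In the treated libraries, which the rule that picked MAB21L4 did not name, SPRR2A, SPRR2D and TP63 were higher in NeuT and MAB21L4, KLK10, TGM1 and SPRR1A were lower. IVL, SPRR1B and SPRR3 did not pass the test. A gene is described as called where its adjusted p from edgeR's quasi-likelihood test, over all genes tested, was under 0.05. Under JG-98, 7 of the 10 genes were called, 3 higher and 4 lower, beside 41.7% of all genes tested (21.7% higher and 20.0% lower). This count includes MAB21L4, and the 10 genes were chosen with earlier results known, so nothing about the set is read from it. The median log2 difference was -0.14 over the 10 genes and -0.00 over all genes tested. In untreated cells 8 of the 10 were called, 4 in each direction, beside 42.0% of all genes (21.2% higher, 20.8% lower); that comparison chose MAB21L4, and nothing is read from this count. Groups of 2 are too small for an exact permutation test of 1 gene to reach 0.05, so each test rests on a spread shared over genes and groups. In whole-culture RNA, fewer cells expressing a gene and less of its RNA per cell cannot be told apart. The 7 calls under JG-98 were kept under every alternative run, including without either NeuT JG-98 library.

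TP63 encodes p63, the regulator of basal and squamous identity (chr3:189631389-189897276, + strand, 7478 exonic bases counted). Its levels were 2.70 and 2.79 CPM in untreated Empty and 3.65 and 3.46 in Empty with JG-98. In NeuT they were 7.26 and 7.74 CPM untreated and 7.51 and 9.44 with JG-98. All 4 NeuT libraries stood above all 4 Empty libraries. Under JG-98 TP63 was 2.39-fold higher in NeuT (log2 difference 1.26, SE 0.14, adjusted p 1.7e-06), and the difference in untreated cells was 1.45 (SE 0.14). The gene has long and short forms that differ at their first exons, and the counts do not separate them.

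IVL encodes involucrin, the scaffold on which the envelope is built (chr1:152908546-152911886, + strand, 2152 exonic bases). It was at 33.0 and 33.5 CPM in untreated Empty, 34.1 and 33.9 in untreated NeuT, 45.9 and 38.2 in Empty with JG-98, and 38.3 and 42.9 in NeuT with JG-98. The treated groups of the lines overlapped. The log2 difference between lines was -0.04 (SE 0.084, adjusted p 0.717) under JG-98 and 0.03 in untreated cells. Either sign turned under another scaling or without a single library.

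The SPRR genes, crosslinked envelope precursors, went in different directions within 1 cluster. SPRR2A (chr1:153056120-153057512, - strand, 677 exonic bases) was at 10.7 and 10.7 CPM in untreated Empty, 13.8 and 10.2 in Empty with JG-98, 77.9 and 76.7 in untreated NeuT, and 75.6 and 82.6 in NeuT with JG-98. The ranges of the lines were far apart. Under JG-98 SPRR2A was 6.68-fold higher in NeuT (log2 difference 2.74, SE 0.10, adjusted p 1.6e-11). SPRR2D (chr1:153039732-153041931, - strand, 1052 exonic bases) was at 33.8 and 34.9, then 42.6 and 32.9 CPM in untreated and treated Empty. In NeuT it was at 110.8 and 112.4 CPM untreated and 106.7 and 118.5 with JG-98, again with no overlap. Its difference under JG-98 was 3.00-fold (log2 1.58, SE 0.096, adjusted p 1.2e-08). Because SPRR2A, SPRR2D, SPRR2E and SPRR2B share words, a part of each value may come from another copy.

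SPRR1A and SPRR1B are the other near-identical pair. SPRR1A (chr1:152985231-152985500, + strand) was counted over 270 bases only, its coding exon. It was at 9.28 and 11.6 CPM in untreated Empty, 11.5 and 11 in Empty with JG-98, 8.44 and 6.53 in untreated NeuT, and 8.12 and 7.49 in NeuT with JG-98. All NeuT libraries were below all Empty libraries, and under JG-98 the gene was 1.44-fold lower in NeuT (log2 difference -0.52, SE 0.13, adjusted p 0.0044). SPRR1B (chr1:153031203-153032900, + strand, 619 exonic bases) was at 28.0 and 29.6, then 38.2 and 35.7 CPM in untreated and treated Empty, and at 38.2 and 32.1, then 41.8 and 35.7 in untreated and treated NeuT. The treated groups overlapped, and the log2 difference under JG-98 was 0.07 (SE 0.091, adjusted p 0.592), with a sign that turned under scaling by total counts. In untreated cells SPRR1B was called higher in NeuT (0.29, SE 0.092, adjusted p 0.018), as SPRR2A was, and SPRR1A lower (-0.48, adjusted p 0.0081). The call of SPRR1B was lost without untreated Empty replicate 1 or 2 or untreated NeuT replicate 1 (adjusted p 0.135, 0.053 and 0.261), and under total-count scaling (0.071). That of SPRR1A was lost without untreated Empty replicate 2 or untreated NeuT replicate 2 (adjusted p 0.156 and 0.174).

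SPRR3, the member of the family best known from the oesophagus, was scarce (chr1:153001747-153003856, + strand, 1441 exonic bases). It ranged from 1.26 to 2.37 CPM over the 8 libraries, with both of these values in NeuT with JG-98. Its log2 difference between lines under JG-98 was -0.23 (SE 0.28, adjusted p 0.555), which is within the spread between libraries.

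TGM1 encodes transglutaminase 1, the membrane-bound enzyme that crosslinks the envelope (chr14:24249114-24264432, - strand, 3735 exonic bases). It was at 35.2 and 34.0 CPM in untreated Empty, 39.2 and 38.8 in Empty with JG-98, 20.9 and 23.0 in untreated NeuT, and 25.5 and 24.8 in NeuT with JG-98. Every NeuT library was below every Empty library. Under JG-98 the gene was 1.55-fold lower in NeuT (log2 difference -0.63, SE 0.074, adjusted p 2.4e-06).

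KLK10 encodes kallikrein-related peptidase 10, a secreted protein first described as expressed in normal breast epithelium (chr19:51012739-51020175, - strand, 3798 exonic bases). It was at 163.3 and 159.2 CPM in untreated Empty, 160.8 and 163.0 in Empty with JG-98, 47.0 and 45.7 in untreated NeuT, and 41.7 and 47.4 in NeuT with JG-98. The lines did not overlap, and treated and untreated libraries of a line were alike in level. Under JG-98 KLK10 was 3.63-fold lower in NeuT (log2 difference -1.86, SE 0.065, adjusted p 1.1e-12). An antisense gene covers 6.32% of its exonic bases, and the use of strand in counting is not given in the sources used here.

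MAB21L4, reported to promote differentiation of keratinocytes, showed the widest difference of the 10 between the lines (chr2:240886048-240896889, - strand, 2772 exonic bases). It had 404 and 372 counts in untreated Empty and 30 and 23 in untreated NeuT, or 7.12 and 6.52 against 0.548 and 0.427 CPM. That difference, -3.80 on the log2 scale, is the one the gene was picked for and carries no test. In the treated libraries it had 232 and 383 counts in Empty and 29 and 13 in NeuT, or 6.09 and 6.53 against 0.537 and 0.241 CPM. Every treated NeuT library was below every treated Empty library. MAB21L4 was 16.2-fold lower in NeuT under JG-98 (log2 difference -4.02, SE 0.25, adjusted p 1.2e-09). Without 1 library at a time and under the other alternatives the log2 difference lay between -4.69 and -3.55.

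**Figure D2:**
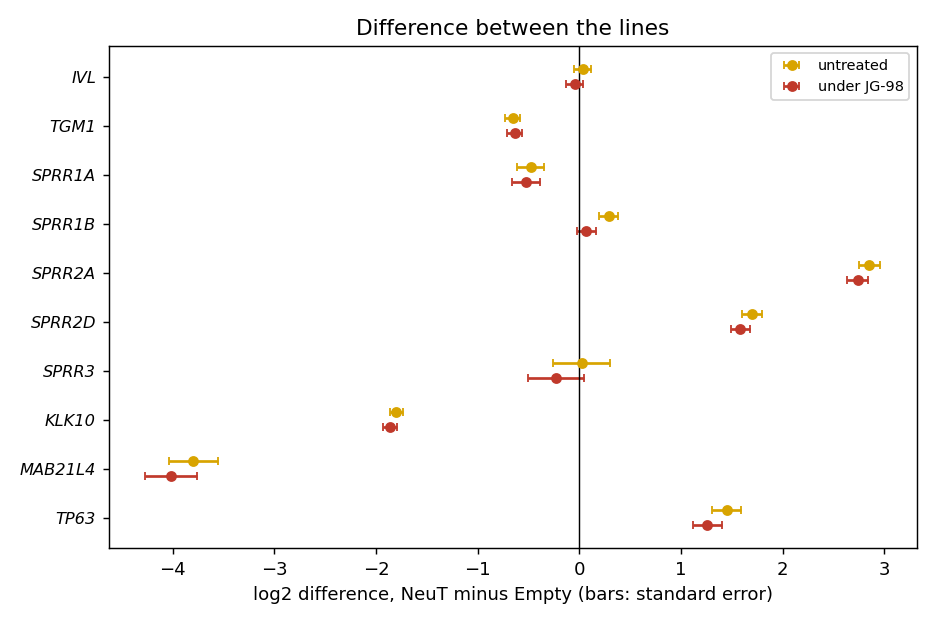
Log2 difference, NeuT minus Empty (horizontal axis), of the 10 genes in untreated cells and under JG-98; bars are standard errors. Under JG-98 the values run from -4.02 for MAB21L4 to 2.74 for SPRR2A, with IVL, SPRR1B and SPRR3 near 0.

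By the distance of their log2 CPM profiles over the 8 libraries, the genes most like MAB21L4 among 13115 compared were TSPAN2 (0.47), BMP5 (0.58), CACNG4 (0.59), MGP (0.67) and SPTSSB (0.70). Profiles were centred on their own mean, so the measure reads mainly shape. Level still enters through the 0.5 CPM added before the log, because MAB21L4 averaged 0.488 and 0.389 CPM in untreated and treated NeuT. That addition shrinks the fall of MAB21L4, so genes that fall less can rank near it. TSPAN2, a tetraspanin, was on average at 26.4 CPM in untreated Empty, 30.6 in Empty with JG-98, 3.83 in untreated NeuT and 3.69 in NeuT with JG-98. BMP5, a secreted growth factor of the TGF-beta family, was at 6.86, 5.52, 0.534 and 0.611 CPM in the same order. All 5 have a low level in NeuT, which is the pattern MAB21L4 was picked for, so this is a description with no test.

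Per kilobase of counted exon the order of the 10 genes differed between the lines. In untreated Empty the highest were SPRR1B at 46.5, KLK10 at 42.4 and SPRR1A at 38.6 CPM per kb. In untreated NeuT the highest were SPRR2A at 114.2, SPRR2D at 106.1 and SPRR1B at 56.8 CPM per kb. IVL stood at 15.4 and 15.8 CPM per kb in those groups. TP63 was the lowest in untreated Empty, at 0.367 CPM per kb, and MAB21L4 the lowest in untreated NeuT, at 0.176. With SPRR1A counted over its coding exon only, its level per kb is not on quite the same footing as the others.

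JG-98 for 12 h gave no call among the 10 genes in either line. In Empty, 0 of 10 were called by edgeR, beside 0.339% of all genes tested (0.260% higher and 0.0791% lower). Of the 10, IVL, SPRR1B, TGM1 and TP63 had an unadjusted p under 0.05, each with a higher level under the drug. Over all genes, 1739 of the 17693 tested had an unadjusted p under 0.05 in Empty. In NeuT, 0 of 10 were called, beside 3.01% of all genes (2.01% higher and 1.01% lower). There IVL and TGM1 had an unadjusted p under 0.05, beside 2829 of the 17693 genes tested. DESeq2 called 2 genes in Empty, IVL and SPRR1B, and 0 in NeuT, and limma-voom called 0 in each. The median log2 change over the 10 genes was 0.16 in Empty and 0.10 in NeuT, against -0.00 and 0.00 over all genes tested.

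The log2 change of IVL with JG-98 was 0.33 (SE 0.085, adjusted p 0.142) in Empty and 0.26 (SE 0.085, adjusted p 0.129) in NeuT. In both lines its 2 treated libraries were above its 2 untreated ones. The value for SPRR1B was 0.36 (SE 0.092, adjusted p 0.148) in Empty, where its groups did not overlap, and 0.14 (SE 0.091, adjusted p 0.500) in NeuT, where they did. Over the alternatives the adjusted p in Empty ran from 0.0050 to 0.806 for IVL and from 0.0022 to 0.725 for SPRR1B. Without NeuT JG-98 replicate 1 or replicate 2, libraries that enter this comparison only through the shared spread, both genes were called in Empty. Without NeuT JG-98 replicate 1, IVL was also called in NeuT.

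None of the other 8 genes was called in either line. The log2 change of TGM1 was 0.17 (SE 0.073) in Empty and 0.20 (SE 0.075) in NeuT, with treated libraries above untreated ones in both. For TP63 it was 0.37 (SE 0.15) in Empty and 0.18 (SE 0.13) in NeuT. SPRR3, with few counts, had 0.51 (SE 0.28) and 0.26 (SE 0.28). KLK10 had 0.01 (SE 0.062) and -0.06 (SE 0.065), with treated and untreated libraries overlapping in both lines. SPRR2A and SPRR2D had 0.15 (SE 0.11) and 0.13 (SE 0.097) in Empty and 0.03 and 0.01 (SE 0.091 each) in NeuT, again with overlap. SPRR1A had 0.11 (SE 0.13) and 0.06 (SE 0.14). MAB21L4 had -0.11 (SE 0.19) in Empty and -0.33 (SE 0.33) in NeuT, where it rests on 13 to 30 counts per library. In the authors' deposited tables of treated against untreated cells no gene of the 10 had an adjusted p under 0.05 either, and the lowest was that of IVL, 0.176 in Empty and 0.145 in NeuT.

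**Figure D3:**
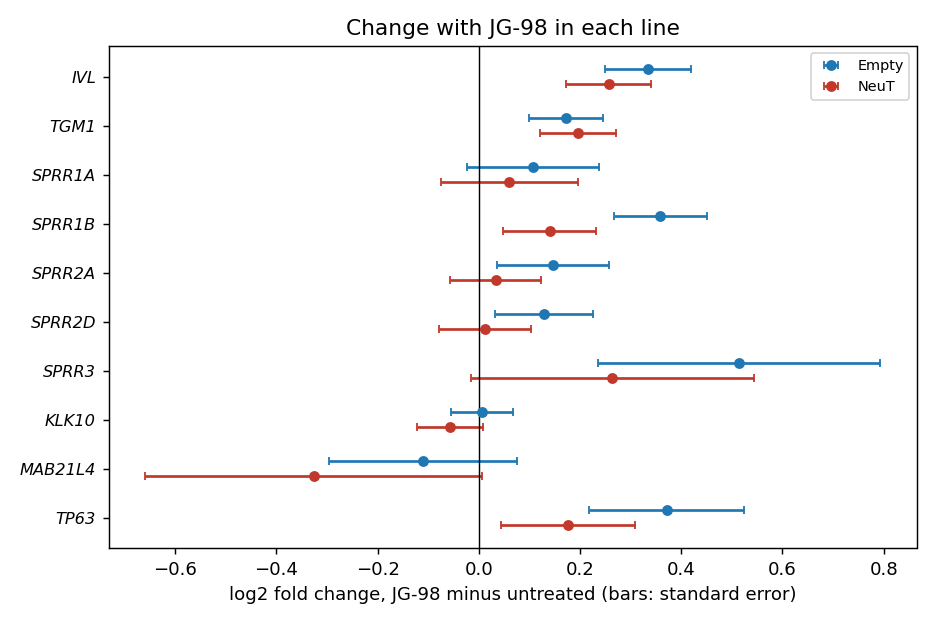
Log2 fold change with JG-98 against untreated cells (horizontal axis) in Empty and NeuT for the 10 genes; bars are standard errors. Most values lie between 0 and 0.4, MAB21L4 has the widest error in NeuT, and no gene was called in either line.

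Whether the drug response itself differed between the lines was tested with the interaction of line and JG-98. No gene of the 10 was called by edgeR, beside 0.00565% of all genes tested. Of the 10, 0 had an unadjusted p under 0.05, beside 1378 of the 17693 genes tested. DESeq2 and limma-voom also called 0. The lowest adjusted p was that of SPRR1B, with a difference in response of -0.22 (SE 0.13, adjusted p 0.712). A difference that misses the threshold does not show that the lines responded alike.

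Other genes of squamous differentiation were counted in 6 lists of 137 genes, of which 107 were tested. The lists were also chosen with earlier results of these data known. Under JG-98, 84 of the 107 were called between the lines, 54 higher and 30 lower in NeuT. Over all genes tested 41.7% were called, 21.7% higher and 20.0% lower. In untreated cells 76 were called, 50 higher and 26 lower, beside 42.0% of all genes (21.2% higher, 20.8% lower). The median log2 difference of the 107 under JG-98 was 0.30. Of the 107, 9 passed the filter on low counts through 1 line only, having fewer than 2 libraries at its minimum in the other line; the remaining 98 held 51 higher and 29 lower, with a median of 0.30. This split was made after the values were seen. None of the 10 genes described above passed in this way. The genes named from each list are the called ones of largest difference under JG-98 with a mean of at least 50 counts, and any other gene named was chosen after its values were seen.

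Among 30 envelope precursors and crosslinkers, 14 were tested, 7 were higher in NeuT and 3 lower, with a median log2 difference of 1.13. The shares over all genes were 21.7% higher and 20.0% lower. Of these 14, LCE3D, LCE3E and SPRR2B passed the filter on low counts only through NeuT, and DSG1 only through Empty, so their direction was set by the filter. Without these 4 genes 5 were higher and 3 lower, with a median of 0.57. LCE3E, a late cornified envelope gene, had 0 counts in every Empty library and a mean of 2.27 CPM in NeuT with JG-98, at least 34.9-fold higher against the limit of 3 counts per library. Its neighbour LCE3D was at 0.105 and 0.153 CPM in Empty and 6.79 and 8.44 in NeuT with JG-98 (log2 difference 5.80, SE 0.28). The 2 genes share 14.0% of the 50-base and 5.45% of the 100-base words of LCE3D. PI3, the protease inhibitor elafin that is crosslinked into the envelope, was 6.17-fold higher (2.62, SE 0.063), and SBSN, suprabasin, 3.80-fold (1.93, SE 0.26). Of the other SPRR2 genes in the complex, SPRR2E (1.49, SE 0.12) and SPRR2C (1.52, SE 0.43) were called higher, SPRR2B (1.46, SE 0.81, adjusted p 0.169) and SPRR2F (0.80, SE 0.37, adjusted p 0.092) were not called, and SPRR2G was not tested. SPRR2B, SPRR2F and SPRR2C had 81, 281 and 260 counts over the 8 libraries. SPRR2C was counted over 219 bases. The words it shares with other genes were not counted, so a part of its value may come from another copy. The 3 called lower were CNFN (-0.76), EVPL (-0.39) and PPL (-0.18), of which envoplakin and periplakin line the envelope. Some late genes were at or near 0, chosen here after their values were seen: LORICRIN, CRNN, TGM3, LCE2A and SPRR4 had 0 counts in all 8 libraries, and FLG, the filaggrin gene, had 39 counts in all.

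Of 11 differentiation keratins, 9 were tested, 3 were higher in NeuT and 5 lower under JG-98, beside 21.7% and 20.0% of all genes. KRT80 was at 357.5 and 359.1 CPM in Empty and 85.3 and 93.7 in NeuT with JG-98, a log2 difference of -2.0 (SE 0.061). KRT10, the keratin of the first suprabasal layer, was also lower (-1.70, SE 0.074), while its partner KRT1 was too scarce to test. Keratins of activated and wounded epithelium went both ways. KRT6B and KRT6C were higher (1.81, SE 0.070, and 1.11, SE 0.11), as was KRT6A (0.75, SE 0.054), and the 3 share words with each other. KRT16 (-0.50, SE 0.055) and KRT17 (-0.41, SE 0.052) were lower, with no overlap between the lines. KRT4, the other keratin called lower, and KRT13, which was not called, passed the filter only through Empty. Without these 2 genes 3 were higher and 4 lower.

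Of 22 proteases and inhibitors, 19 were tested, 8 were higher and 8 lower, beside 21.7% and 20.0% of all genes. The inhibitors SERPINB2 (3.16, SE 0.26) and SERPINB4 (3.02, SE 0.20) were highest in NeuT against Empty. The kallikreins KLK6 (-2.68, SE 0.092) and KLK5 (-2.27, SE 0.062) were lower, as KLK10 was. Taking every kallikrein of the list, KLK5, KLK6, KLK7, KLK8 and KLK14 were called lower, KLK11 and KLK13 were not called, and KLK9 was not tested. KLK11 and KLK13 passed the filter only through Empty, and without them the median of the list was 0.26 in place of -0.37. KLK5 and KLK6 overlap antisense genes over 12.2% and 20.5% of their exonic bases. SERPINB4 shares 20.1% of its 50-base words with SERPINB3 and SERPINB11 and 2.71% of its 100-base words with SERPINB3, and 20.0% of the exonic bases of SERPINB2 lie in SERPINB10, so reads may be split between these genes.

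Of 29 transcription factors linked to squamous differentiation, 26 were tested, 13 were higher and 6 lower, beside 21.7% and 20.0% of all genes. PRDM1, the repressor Blimp-1, was 6.93-fold higher in NeuT (2.79, SE 0.15), and MAF was 3.34-fold higher (1.74, SE 0.33). NOTCH3 was higher (1.10, SE 0.17) and OVOL1 lower (-1.43, SE 0.25). An antisense gene covers 27.3% of the exonic bases of OVOL1. ZNF750, a target of p63 that drives late differentiation, had 2 counts in each of 2 libraries and 0 in the others.

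Of 22 barrier lipid and surface genes, 17 were tested, 8 were higher and 4 lower, beside 21.7% and 20.0% of all genes. RHCG, 1 of the 8, passed the filter only through NeuT, and without it 7 were higher and 4 lower. The lipoxygenase gene ALOX15B was 3.93-fold higher in NeuT (1.97, SE 0.064), followed by the cholesterol sulfotransferase gene SULT2B1 (0.97, SE 0.13), ALOXE3 (0.86, SE 0.21) and the ephrin receptor gene EPHA2 (0.66, SE 0.071). Of 23 basal keratinocyte genes linked to p63, 22 were tested, 15 were higher and 4 lower, beside the same shares of all genes. The hemidesmosome collagen gene COL17A1 (1.68, SE 0.065), the Notch ligand gene JAG1 (1.47, SE 0.12) and the laminin gene LAMA3 (1.29, SE 0.10) were higher. S100A2, a known target of p63, was lower (-1.54, SE 0.096).

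**Figure D4:**
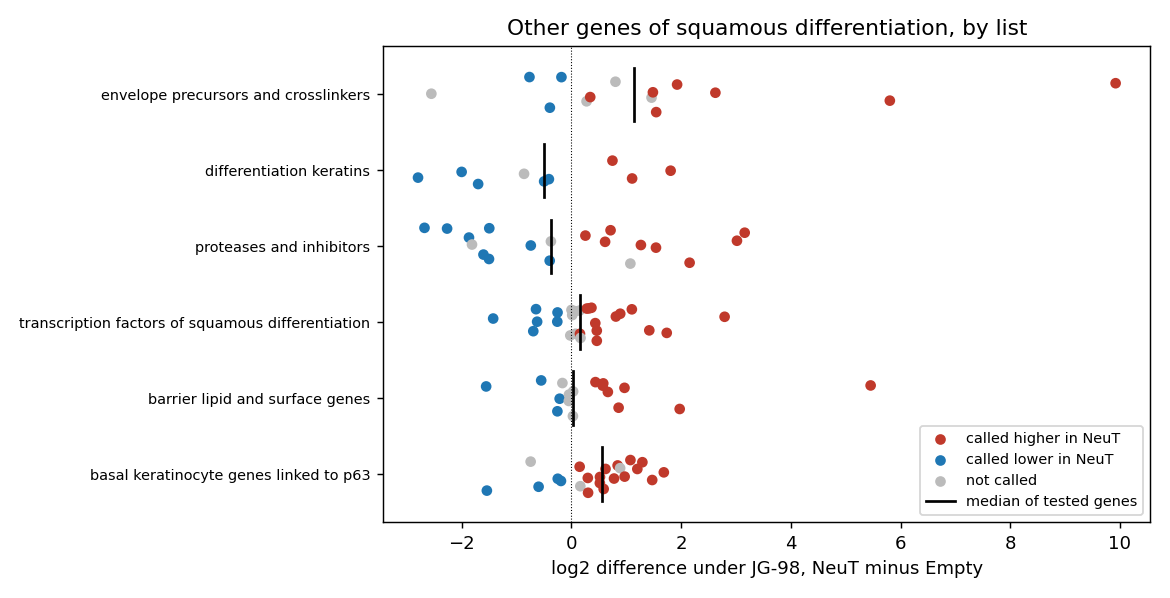
Log2 difference between NeuT and Empty under JG-98 (horizontal axis) of the 107 tested genes of the 6 lists; each point is 1 gene, coloured by its call, and the black line is the list's median. The envelope list reaches from -2.55 to the fitted value of LCE3E, which has 0 counts in Empty, and the protease list splits into a lower and a higher set.

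JG-98 gave fewer calls in these lists than the lines did. In Empty 1 of 107 was called, PRSS8, the gene of the membrane protease prostasin, which rose by 0.37 (SE 0.057, adjusted p 0.0073), beside 0.339% of all genes tested. An antisense gene covers 12% of its exonic bases. In NeuT 13 were called, 12 higher and 1 lower, beside 3.01% of all genes (2.01% higher and 1.01% lower). ALOXE3 rose by 1.41 (SE 0.21), PRDM1 by 0.73 (SE 0.13), CLDN1 by 0.54 (SE 0.080), NRG1 by 0.52 (SE 0.11), CSTA by 0.37 (SE 0.088), PPL by 0.35 (SE 0.059), PRSS8 by 0.32 (SE 0.057), KRT80 by 0.24 (SE 0.061) and KLF5 by 0.24 (SE 0.055). TGM2, the gene called lower, fell by 0.24 (SE 0.054). For ALOXE3, the treated NeuT libraries were at 5.79 and 9.33 CPM and the untreated ones at 3.27 and 2.43. No gene of the lists was called for the interaction, by edgeR, DESeq2 or limma-voom. These counts rest on single libraries. In Empty the count of 1 became 0 without either untreated Empty library or without Empty JG-98 replicate 1, and 11 without either NeuT JG-98 library. In NeuT the count of 13 became 33 without NeuT JG-98 replicate 1, 3 and 2 without untreated NeuT replicates 1 and 2, and 8 without either untreated Empty library. The interaction count of 0 became 17 without NeuT JG-98 replicate 1 and 1 without replicate 2.

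Of the 10 genes, 6 lie in the epidermal differentiation complex, taken here as the genes of the count table on chromosome 1 whose starts lie from that of S100A11 to that of S100A1 (152032506 to 153627926, GRCh38). The region held 88 genes, of which 34 had no count in any library and 30 were tested. Under JG-98, 15 of the 30 were higher in NeuT and 4 lower, beside 21.7% and 20.0% of all genes tested, with a median log2 difference of 0.66. TCHH, CRCT1, LCE3E, LCE3D and SPRR2B passed the filter only through NeuT and PGLYRP3 only through Empty. Of the other 24 genes 12 were higher and 4 lower, with a median of 0.38. In order along the chromosome the described genes were IVL, SPRR1A, SPRR3, SPRR1B, SPRR2D and SPRR2A. The first 4 lie within 122.7 kb from the start of IVL and had differences of -0.04, -0.52, -0.23 and 0.07. SPRR2D and SPRR2A, 131.2 and 147.6 kb from it, had differences of 1.58 and 2.74. Of the neighbours SPRR1B and SPRR2D, only SPRR2D was called under JG-98, while in untreated cells both were called higher. The S100 genes at the far end from LCE3D and LCE3E held S100A8 among those higher (2.86, SE 0.22) and S100A2 among those lower; these were named after their values were seen.

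**Figure D5:**
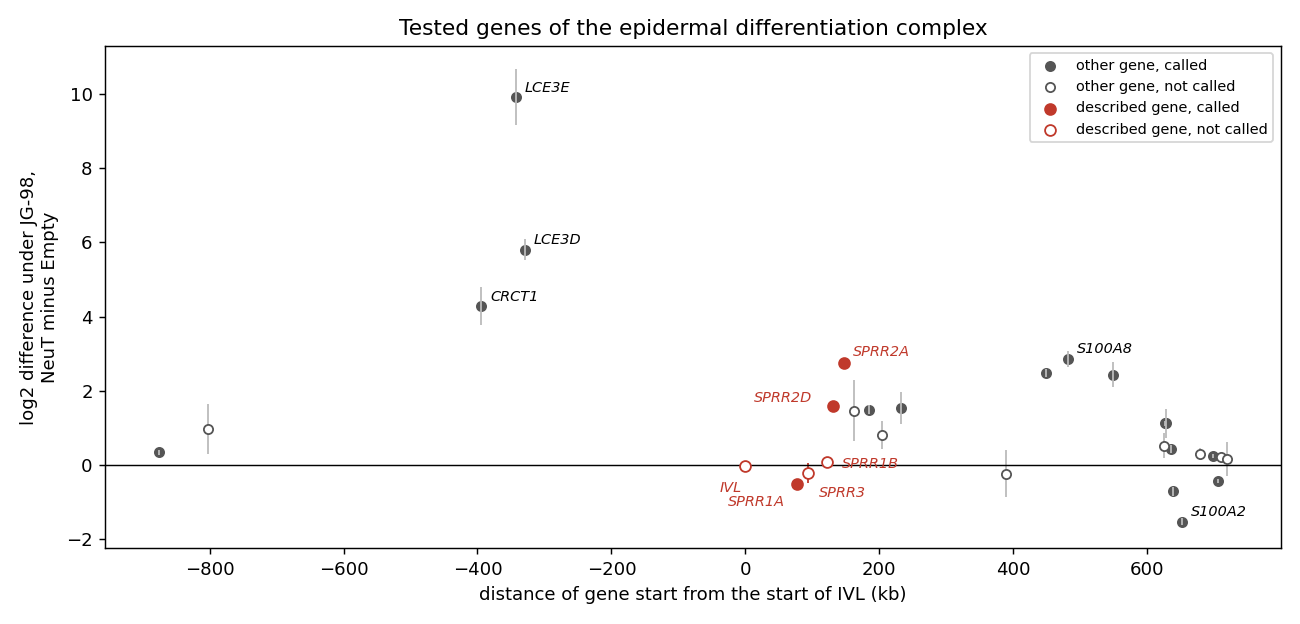
Log2 difference between NeuT and Empty under JG-98 (vertical axis; bars are standard errors) of the 30 tested genes of the complex against the distance of their starts from that of IVL in kb. The 6 described genes are in red and filled where called; SPRR2D and SPRR2A stand at 1.58 and 2.74, IVL, SPRR3 and SPRR1B near 0 and SPRR1A at -0.52. The value of LCE3E is a fitted one with 0 counts in Empty.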

How the data were processed

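RNA of 8 libraries in 4 groups of 2 was read as poly(A)-selected RNA on DNA nanoballs, per the labels' protocols. The authors deposited raw counts per gene; featureCounts 1.6.3, HISAT2 2.1.0, SAMtools 1.9, Trim Galore 0.5.0, FastQC 0.11.7, limma and GRCh38 are named in the submitters' processing notes, without their settings. The authors also deposited tables of treated against untreated cells with a log2 fold change, a p-value and a test score per gene, per the file headers. Groups came from sample titles. Symbols from a table of gene names matched 60261 of 60617 identifiers.

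The counts were analysed with edgeR 4.0.16 in R 4.3.3: filterByExpr (minimum count 10, minimum total 15), TMM, robust quasi-likelihood estimation in 1 model of the 4 groups over all 8 libraries, and Benjamini-Hochberg adjustment over 17693 genes with a threshold of 0.05. SE is the size of the log2 difference over the square root of F. Coordinates are those of the count table, 1-based; 5 of the 10 genes have the same start and end in GENCODE 29. Profile distance used log2(CPM + 0.5) where the mean count was at least 50. Named list genes were up to 4 called per list between lines under JG-98 and up to 2 per list and drug comparison. The script was tested on simulated data. Alternatives were RLE or total-count scaling, other filters, DESeq2 1.42.0, limma-voom 3.58.1, no robust estimation, a replicate block, 4 libraries only and leaving out each library. The 10 genes and all lists were chosen with earlier results of these data known.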

Additional observations from a re-analysis of the deposited data

How the results depend on the processing

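The 7 calls between the lines under JG-98 kept direction and call under all 17 alternatives. Leaving out 1 library leaves a group with a single library, which is then assumed to vary like the others. The number of the 10 genes called with JG-98 in Empty, 0, was 2 with no filter, by DESeq2 and with only the 4 libraries compared, and 0 to 2 without 1 library. In NeuT it was 1 with no filter and 0 to 1 without 1 library. For the 107 list genes the count in Empty was 6 with no filter, 4 by DESeq2 and 8 with 4 libraries, and 0 to 11 without 1 library. In NeuT it was 22 with no filter and 5 with 4 libraries, and 2 to 33 without 1 library. For the interaction it was 4 with no filter and 0 to 17 without 1 library. The cause was not tested.

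Signs turned only for genes not called. Under total-count scaling, which moved the median of all genes between lines by -0.07, untreated IVL became -0.036, untreated SPRR3 -0.044 and treated SPRR1B -0.0051, and untreated SPRR1B (0.22) lost its call. With no filter KLK10 in Empty with JG-98 became -0.00084. Without 1 library, the log2 change with JG-98 in Empty ran from -0.042 to 0.27 for SPRR1A, -0.068 to 0.36 for SPRR2A, -0.061 to 0.31 for SPRR2D and -0.014 to 0.024 for KLK10. In NeuT it ran from -1.02 to 0.13 for MAB21L4, -0.12 to 0.25 for SPRR1A, -0.040 to 0.093 for SPRR2A, -0.073 to 0.085 for SPRR2D, -0.26 to 0.64 for SPRR3, -0.16 to 0.029 for KLK10 and -0.0050 to 0.33 for TP63. The interaction ran from -0.91 to 0.23 for MAB21L4, -0.21 to 0.057 for IVL, -0.052 to 0.082 for TGM1, -0.23 to 0.14 for SPRR1A, -0.33 to 0.10 for SPRR2A, -0.29 to 0.074 for SPRR2D, -0.78 to 0.12 for SPRR3 and -0.17 to 0.018 for KLK10. Between lines it ran from -0.15 to 0.22 for untreated SPRR3 and, under JG-98, from -0.17 to 0.090 for IVL, -0.041 to 0.18 for SPRR1B and -0.74 to 0.16 for SPRR3.

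Same-numbered libraries were not treated as pairs in the main model. Their deviations correlated at 0.24 between the 2 treated groups and at -0.10 to 0.064 between the other groups. Whether treated libraries of the same number shared a handling step was not tested. The replicate block gave 2 list calls in Empty, 13 in NeuT and 85 between lines under JG-98, and 0, 0 and 7 calls among the 10 genes. The block with crossed numbers in NeuT, added after seeing the data, called 1 of the 10 genes and 19 list genes. Depth limits MAB21L4 in NeuT, SPRR3 and the late envelope genes, which had few counts.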
